A study of Arabidopsis thaliana with 8 samples.

Results

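Agilent expression arrays of Arabidopsis carry, beside the probes for annotated genes, a large set of probes that the design names only by a stretch of a chromosome. Of 8812 such probes on the array used here, 2020 gave a signal well above background (the scanner software's own flag) on at least 3 of the 4 arrays of a genotype, and these 2020 members are described below. The same rule left 24008 of 37478 non-control probes, among them 20805 of 26236 probes named by a locus, and a further 2430 probes on the array carry other names. The members were thus chosen on the presence of signal, so their level and detection are given as a description.

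Total RNA came from whole 2-week-old Columbia-0 seedlings carrying 35S:MYB87-SRDX (n = 4 samples) and from wild-type (WT) seedlings of the same age and ecotype (n = 4 samples), with 5 seedlings harvested per sample and 1 one-colour Cy3 array per sample. All seedlings are labelled T2 and grew on MS agar with 1% sucrose in 16 h of light and 8 h of dark at 23 °C. The MYB87-SRDX samples were on hygromycin medium and the WT samples were not, and each genotype lay on a slide of its own, so genotype, hygromycin and slide cannot be told apart. The labels do not say how many independent transgenic lines were used or whether the samples of a genotype came from separate plates, so the p-values rest on a sample-to-sample spread that may be in part technical. MYB87 belongs to the R2R3 class of MYB transcription factors, SRDX is a short repression motif that makes a transcription factor act as a dominant repressor, and the 35S promoter of cauliflower mosaic virus is active in most plant tissues. The comparison asks how the seedling transcriptome changes with this fusion protein.

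A position-only name means that the array's designers tied the probe to a place in the genome and not to a gene. Plant genomes are transcribed beyond their protein-coding genes: antisense RNA, long noncoding RNA, precursors of small RNA, transposon transcripts and unannotated ends of genes all give RNA from such places. Many of these RNAs are known as rare or as limited to few cells or conditions. No source used here gives the genome build of the positions, so no gene is assigned to them. A position is printed with the coordinates of the probe's name, the smaller first. The names hold no strand sign. Strand was inferred from the order of the coordinates in the name, as minus where the larger comes first and plus otherwise.

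The 8 arrays were alike in depth of signal. The 75th percentile of the processed signal, by which each array was scaled, was 1539 to 1908 on the MYB87-SRDX arrays and 1602 to 2055 on the WT arrays, and 63.1% to 65.5% of spots were well above background. All signal levels below are log2 values relative to that percentile, so 0 is the brightness of a probe at the 75th percentile. Across members the correlation between arrays was 0.9587 to 0.973 within MYB87-SRDX, 0.9525 to 0.9742 within WT and 0.9125 to 0.9533 between the genotypes, where the points share their probes. The probe for MYB87 (AT4G37780) checked the labels, with 5.75, 5.52, 5.58 and 2.54 in MYB87-SRDX against -5.48, -7.20, -7.44 and -7.08 in WT. It was called as higher in MYB87-SRDX (adjusted p = 0.000564 by limma), but was well above background on only 2 of the 4 WT arrays, so the fitted log2 difference of 11.65 ± 0.77 (SE) rests on a WT signal near background. MYB87-SRDX replicate 4 was lower than its other replicates. The 5 shoot and 5 root markers were well above background on all 8 arrays, and none of them was called. Markers of other organs or stages moved with genotype. Of 4 seed markers, 3 were detected on all 4 WT arrays and on no MYB87-SRDX array: CRA1 (AT5G44120), PER1 (AT1G48130) and an oleosin gene (AT2G25890) were called as lower in MYB87-SRDX, by at least 7.86-fold, 8.92-fold and 5.68-fold. The summed linear signal of the 4 seed markers, relative to the 75th percentile, was 0.01 to 0.0201 on the MYB87-SRDX arrays and 0.0857 to 0.51 on the WT arrays. Of 3 flower markers, SEP3 (AT1G24260) was called as 3.26-fold higher in MYB87-SRDX, with overlapping genotypes, and AP1 and AG were detected on 1 or 0 arrays of either genotype. Their part in the members' differences was not tested.

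Position-named probes were dim. The median level of the 2020 members was -5.56, with 5% of them under -7.00 and 5% over -1.03, whereas detected locus-named probes had a median of -0.40. Probes differ in how strongly they respond to their RNA, so these are signals and not RNA amounts. Of the members, 47 (2.33%) were above 0, the brightness of the 75th percentile, against 9137 (43.9%) of the detected locus-named probes. The 6792 position-named probes that were not detected had a median of -8.76 and a highest mean of -6.53, so the classes met in a zone of dim signal. Over all brightnesses, the spread between replicates was wider for members than for locus-named probes. The median SD over 4 arrays was 0.237 in MYB87-SRDX and 0.237 in WT, against 0.133 and 0.149 for locus-named probes. At matched brightness the order varied, among probes detected on all 8 arrays. Dimmer than -5, the median SDs in MYB87-SRDX and WT were 0.237 and 0.242 for members, against 0.267 and 0.297 for locus-named probes. Between -3 and 0 they were 0.16 and 0.16 for members, against 0.135 and 0.145.

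**Figure D1:**
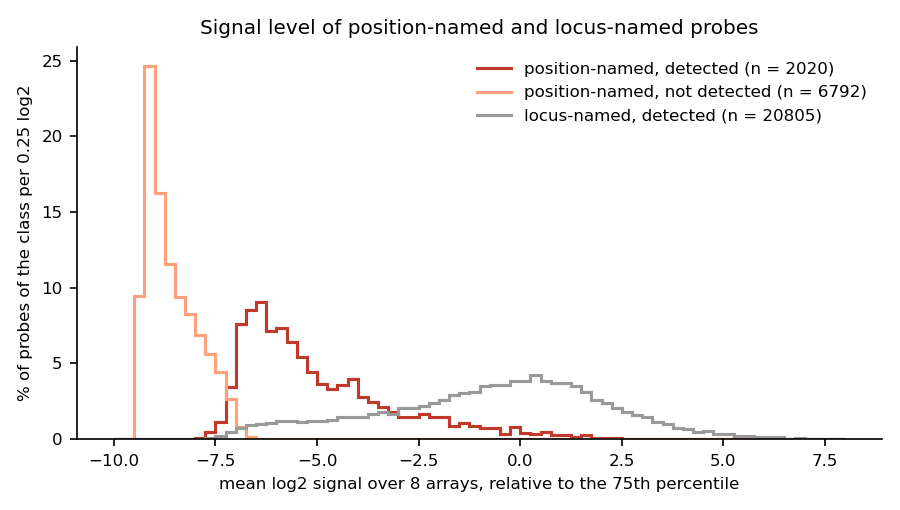
Distribution of the mean log2 signal over 8 arrays, relative to the 75th percentile (horizontal axis), as the percentage of each class of probes per 0.25 log2 (vertical axis). The 2020 detected position-named probes peak near the dim end with a median of -5.56, next to the 6792 not detected, while the 20805 detected locus-named probes have a median of -0.40.

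Near the limit of detection, the membership of a probe rested on small amounts of signal. Among members detected in both genotypes the dimmest was A_84_P732359 (chr1:2193022-2193081, plus strand), with -6.93, -6.86, -7.84 and -6.50 in MYB87-SRDX and -6.81, -6.75, -7.37 and -6.60 in WT. The brightest position-named probe outside the rule was A_84_P711115 (chr5:3410802-3410861, minus strand), with -5.06, -5.33, -8.18 and -6.97 in MYB87-SRDX and -6.64, -7.44, -7.67 and -4.96 in WT. It was brighter on average than A_84_P732359, but was well above background on only 2 arrays of each genotype.

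More position-named probes were detected on 3 of the 4 MYB87-SRDX arrays than on any WT array. The arrays had 2242, 2318, 2003 and 2214 of them well above background in MYB87-SRDX, against 2006, 2140, 1973 and 1895 in WT. These counts correspond to 22.7% to 26.3% of the 8812 in MYB87-SRDX and 21.5% to 24.3% in WT, and the ranges overlap. For locus-named probes the ranges also overlapped, at 78.4% to 79.7% in MYB87-SRDX and 78.2% to 80.2% in WT. By the rule of 3 of 4 arrays, 1656 members (82.0%) were detected in both genotypes, 262 (13.0%) in MYB87-SRDX only and 102 (5.05%) in WT only, and 1472 (72.9%) were detected on all 8 arrays. Members of the single-genotype classes had to be higher in the genotype that let them in, so their direction carries no information. The median local background differed between the slides, while the negative controls overlapped. Negative controls lay at -9.18 ± 0.14 in MYB87-SRDX and -9.32 ± 0.18 in WT (SD, n = 4 each), and the local background was 52.5 to 54.0 intensity units on the MYB87-SRDX arrays and 63.0 to 64.5 on the WT arrays. Their part in the detection counts was not tested.

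In the comparison of genotypes, 598 of the 2020 members passed an adjusted p of 0.05 by limma, adjusted over all 24008 probes. That is 29.6%, near the 26.8% of all probes and the 26.6% of locus-named probes tested. In this fit the number of calls thus did not set the members apart. In RNA from whole seedlings, fewer cells of a type and less RNA per cell cannot be told apart. The direction of the calls was uneven. In MYB87-SRDX 463 members (22.9%) were higher, against 15.3% of all probes and 14.3% of locus-named probes. Lower were 135 members (6.68%), against 11.5% of all probes and 12.3% of locus-named probes. Of these calls, 127 rises and 18 falls were members detected in a single genotype, whose direction the rule fixed. On all 8 arrays, 21.2% of the members detected there were higher and 7.61% lower, against 14.2% and 11.9% of such locus-named probes. At least 2-fold changes were 142 rises (7.03%, against 2.35% of all and 1.8% of locus-named probes) and 17 falls (0.842%, against 2.22% of all and 2.41% of locus-named probes). Of these, 72 rises and 8 falls were members detected in a single genotype, whose direction the rule fixed. Among the 1472 members detected on all 8 arrays there were 59 rises (4.01%) and 7 falls (0.476%) of at least 2-fold, against 1.29% and 1.89% of the locus-named probes detected on all 8. The 4 MYB87-SRDX values lay entirely above or below the 4 WT values for 598 members (29.6%), against 30.5% of all probes and 30.8% of locus-named probes. The counts depended on the arrays used, for the members and for all probes alike. Without MYB87-SRDX replicate 1 there were 376 calls (293 higher, 83 lower), 18.6% of members against 15.5% of all probes. Without WT replicate 2 there were 363 (287 higher, 76 lower), 18.0% against 14.1%. Without WT replicate 3 there were 414 (20.5% against 17.7%), and without MYB87-SRDX replicate 4 there were 431 (21.3% against 19.1%). Normexp background correction starts from the median signal and local background in place of the processed signal, and adds an offset of 50 to every signal. It left 387 calls and 19 rises and 0 falls of at least 2-fold. The calls were then 19.2% of members against 25.8% of all probes, and 21.0% against 25.3% with the offset alone. With the authors' deposited values they were 20.6% against 12.2%, and with median scaling 28.1% against 20.4%. Which share was larger thus depended on the processing.

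The median log2 difference of the members was 0.195, against 0.025 over all probes tested and 0.010 over locus-named probes. The members detected on all 8 arrays, whose entry did not need a difference between genotypes, had a median of 0.147, against 0.011 for such locus-named probes. Called as higher were 312 of these 1472 members (21.2%) and as lower 112 (7.61%), against 14.2% and 11.9% of the locus-named probes. Probes that were not detected shifted by a similar amount, since the median was 0.173 over the 6792 undetected position-named probes and 0.148 over undetected locus-named probes. The negative controls differed by 0.14, which is within their spread between arrays. The background that normexp fitted, after subtraction of the local background, did not overlap between the genotypes. It was 10.01 to 13.02 intensity units on the MYB87-SRDX arrays and -1.75 to -0.08 on the WT arrays. What part of the members' median difference goes with these background signals was not tested. The median member deviated from its 8-array mean by 0.216, 0.050, 0.004 and 0.144 on the MYB87-SRDX arrays and by -0.145, -0.140, -0.133 and 0.014 on the WT arrays. MYB87-SRDX replicate 3 and WT replicate 4 thus met near 0, and the ranges of the genotypes overlapped.

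The balance of rises and falls varied with brightness, and differed between the 2 kinds of probe at the dim end. Among members detected on all 8 arrays and dimmer than -5, 126 were higher and 25 lower of 686 (median 0.198), whereas locus-named probes in the same range had 83 higher and 172 lower of 1024 (median -0.141). Between -5 and -3 the members had 122 higher and 45 lower of 478 (median 0.145), and locus-named probes 225 higher and 482 lower of 2479 (median -0.156). Between -3 and 0 the members were more even, with 51 higher and 37 lower of 261 (median -0.007), against 806 and 1094 of 7247 locus-named probes (median -0.048). Above 0, 13 were higher and 5 lower of 47 members (median 0.118), and locus-named probes were mostly higher there too, with 1712 against 628 of 9137 (median 0.078). At matched low brightness the members' medians therefore lay above 0 and those of locus-named probes below it, as a description with no test of the difference between the classes. Probes with other names, the third class, resembled the members with 223 of their 303 calls higher (73.6%) and a median of 0.155.

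**Figure D2:**
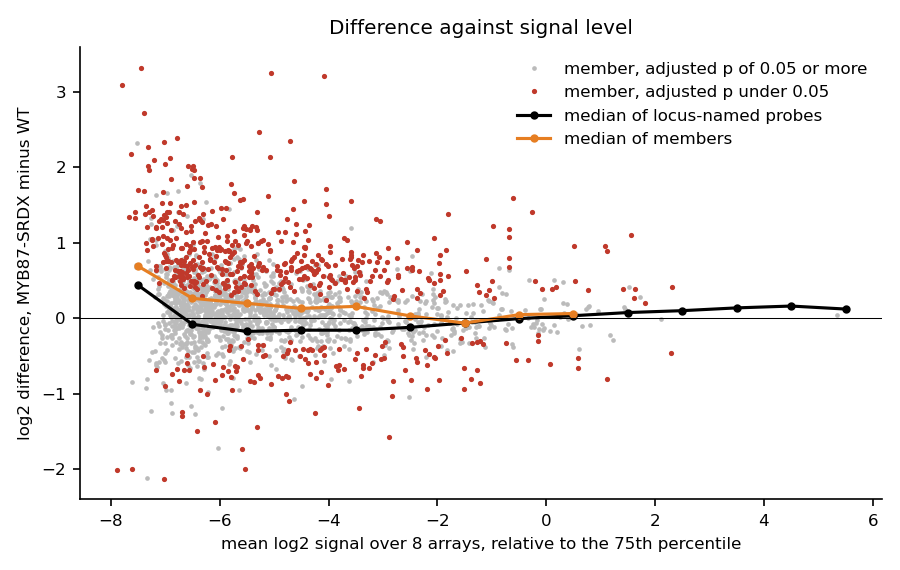
Log2 difference, MYB87-SRDX minus WT (vertical axis), against mean log2 signal over 8 arrays relative to the 75th percentile (horizontal axis), for each of the 2020 members, red where the adjusted p was under 0.05. Lines join medians of bins 1 log2 wide that hold at least 20 probes, orange for members and black for locus-named probes. The orange line runs above the black one at the dim end. Both lines include probes detected in a single genotype, whose direction the detection rule fixed, so the gap there is in part set by that rule.

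Among the 377 members that were called, detected on all 8 arrays and had genotypes that did not overlap, 277 were higher and 100 lower. The share of other probes that met all these conditions is not given here. Of the members detected on all 8 arrays, 28.8% were called and 29.0% had genotypes that did not overlap. Those shares were 26.2% and 30.7% for such locus-named probes. The largest rise was A_84_P706811 on the minus strand of chr3:23336644-23336703, with -1.99, -3.09, -2.62 and -2.20 in MYB87-SRDX and -5.39, -5.54, -6.05 and -5.76 in WT. Each MYB87-SRDX array exceeded every WT array by more than the spread within either genotype. The difference was 3.21 ± 0.25 (SE), a 9.28-fold rise with an adjusted p of 0.000693 by limma. A_84_P728206 (chr5:7891337-7891396, minus strand) had -3.55, -4.35, -4.39 and -3.86 in MYB87-SRDX and -6.88, -6.52, -6.34 and -6.28 in WT, a difference of 2.47 ± 0.22 with an adjusted p of 0.0009. A_84_P728597 (chr5:136907-136966, plus strand) had -3.16, -3.67, -3.96 and -3.34 in MYB87-SRDX and -6.38, -6.47, -5.35 and -5.32 in WT. Its WT arrays fell in 2 pairs, yet all were below MYB87-SRDX, and the difference was 2.35 ± 0.32 (adjusted p = 0.00298). The fourth rise, A_84_P703485 (chr2:11819818-11819877, minus strand), had -4.26, -3.99, -3.76 and -4.02 in MYB87-SRDX and -6.19, -6.31, -6.34 and -5.75 in WT, a difference of 2.14 ± 0.16 (adjusted p = 0.00066).

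The next rises were single probes on chromosomes 3, 2, 4 and 3. A_84_P700802 (chr3:3740871-3740930, plus strand) rose by 1.81 ± 0.37 and A_84_P716558 (chr2:11708710-11708769, plus strand) by 1.78 ± 0.24, with adjusted p of 0.0114 and 0.00282 by limma. A_84_P724214 (chr4:6646214-6646273, plus strand) ranged from -3.83 to -2.28 in MYB87-SRDX and from -5.40 to -4.56 in WT, a rise of 1.71 ± 0.35. A_84_P701831 (chr3:12452081-12452140, plus strand) rose by 1.63 ± 0.33, and A_84_P267590 (chr1:23721685-23721744, plus strand), the last of the 10, by 1.58 ± 0.17.

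The ninth rise was the brightest of the 10 and the only one with neighbouring members. A_84_P730658 (chr1:5297856-5297915, plus strand) had 0.23, -0.21, 0.17 and 0.52 in MYB87-SRDX and -1.62, -1.67, -1.52 and -0.85 in WT, a difference of 1.60 ± 0.22 with an adjusted p of 0.00304 by limma. On the same strand, A_84_P718168 (chr1:5298044-5298103) had 2.13, 1.86, 2.07 and 2.38 in MYB87-SRDX and 0.64, 0.78, 1.02 and 1.60 in WT, a rise of 1.1 ± 0.21 (adjusted p = 0.00925). The opposite strand, read by A_84_P730620 (chr1:5298148-5298207), was also higher, with -4.20, -4.16, -3.88 and -3.91 in MYB87-SRDX and -5.63, -5.43, -5.15 and -4.43 in WT. It rose by 1.12 ± 0.24 (adjusted p = 0.014). WT replicate 4 was the highest WT array on all 3 probes.

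The falls were smaller than the rises. The largest, A_84_P723830 (chr1:8919382-8919441, plus strand), had -4.10, -4.01, -3.35 and -3.20 in MYB87-SRDX and -2.19, -2.05, -2.22 and -1.93 in WT. The WT arrays were tightly grouped and all lay above MYB87-SRDX. It fell by 1.57 ± 0.21 on the log2 scale, with an adjusted p of 0.00302 by limma. A pair on the minus strand of chromosome 5 fell together. A_84_P704604 (chr5:5383491-5383550) had -6.35, -5.93, -6.09 and -5.74 in MYB87-SRDX and -4.63, -4.44, -4.53 and -4.73 in WT, a difference of -1.44 ± 0.13 (adjusted p = 0.00104). Its neighbour A_84_P739044 (chr5:5383780-5383839) had -6.76, -6.45, -6.45 and -6.14 in MYB87-SRDX, where it was detected on 3 arrays, and -4.99, -4.50, -4.46 and -4.90 in WT, a difference of -1.74 ± 0.17 (adjusted p = 0.00116). A second pair, on the minus strand of chromosome 2, was brighter. A_84_P739163 (chr2:804584-804643) had -2.15, -1.83, -2.25 and -1.69 in MYB87-SRDX and -1.17, -1.04, -1.10 and -0.89 in WT, a difference of -0.93 ± 0.14, and A_84_P721975 (chr2:804975-805034) differed by -0.80 ± 0.10.

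Other falls were A_84_P720423 (chr2:15134645-15134704, plus strand, -1.26 ± 0.16), A_84_P714336 (chr1:18958204-18958263, plus strand, -1.09 ± 0.15) and A_84_P22152 (chr3:9069908-9069967, plus strand, -0.88 ± 0.15), with adjusted p of 0.00267, 0.00324 and 0.00624 by limma. A_84_P726333 is given below with the chromosome 2 block in which it lies. Calls for 3 of the 10 falls were fragile. A_84_P298624 (chr4:11762713-11762772, plus strand) had -3.84, -4.14, -4.12 and -4.02 in MYB87-SRDX and -1.60, -3.14, -3.43 and -3.18 in WT, with WT replicate 1 far above the rest. Its difference was -1.19 ± 0.37 (adjusted p = 0.0465). Its call was lost in 10 of 19 alternative settings, that of A_84_P722438 (chr2:9693016-9693075, minus strand, -1.01 ± 0.28, adjusted p = 0.0348) in 10, and that of A_84_P703501 (chr4:8089116-8089175, plus strand, -0.95 ± 0.26, adjusted p = 0.0326) in 9. Normexp background correction shrank these dim differences: it gave 0.54 to 2.03 for the 10 rises and -0.99 to -0.22 for the 10 falls. It moved 9 of the rises and 7 of the falls by over 1.5 times.

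**Figure D3:**
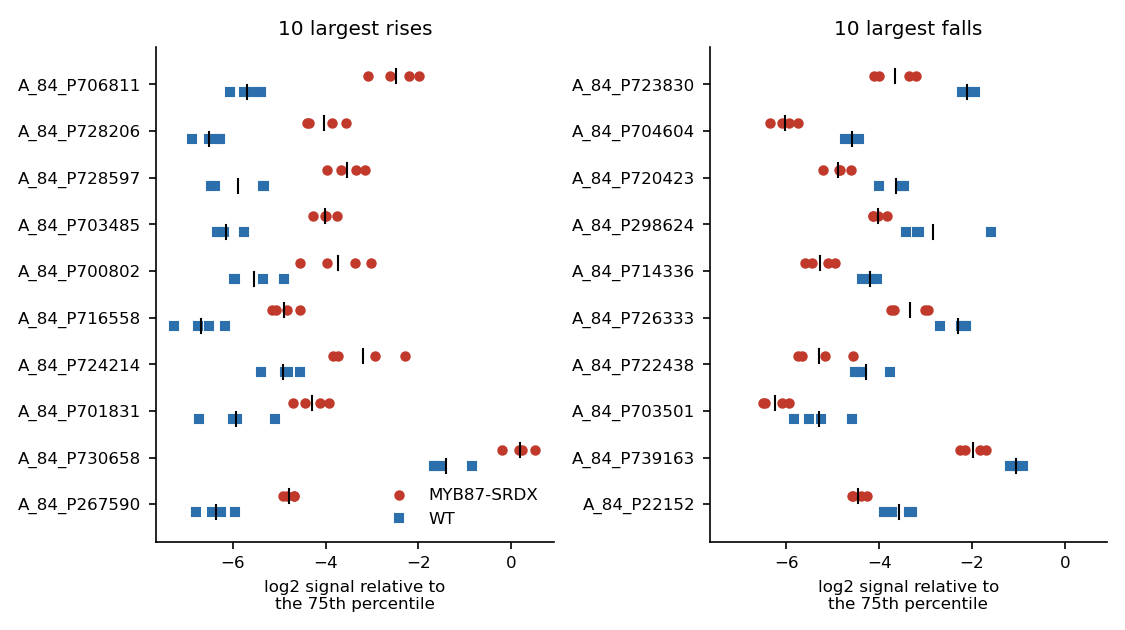
Log2 signal relative to the 75th percentile (horizontal axis) for the 10 largest rises (left) and 10 largest falls (right), 1 probe per row. Red circles are the 4 MYB87-SRDX arrays and blue squares the 4 WT arrays, with black ticks at the means. The genotypes do not overlap in any row, by the rule that chose them, and in the row of A_84_P298624 1 WT array at -1.60 stands apart.

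For called members without detection on any of a genotype's arrays, the fold is only a bound, which sets the mean of the brighter genotype against the higher of the probe's own signal and the lowest signal well above background on each array of the dimmer one. In WT 70 called members were undetected throughout, with bounds of 1.12-fold to 3.0-fold. In MYB87-SRDX 5 were, with bounds of 1.12-fold to 2.11-fold. These counts do not measure a genotype contrast, since more members entered without any WT detection than without any MYB87-SRDX detection. Without WT detection were 48 members detected on 3 MYB87-SRDX arrays and 42 on 4. Without MYB87-SRDX detection were 16 members detected on 3 WT arrays and 4 on 4. The matching counts for locus-named probes and for all probes are not given here. A_84_P731861 (chr1:6426520-6426579, plus strand) had -5.87, -6.03, -5.25 and -5.17 in MYB87-SRDX and -7.45, -7.55, -8.17 and -7.21 in WT. Its bound was a 3.0-fold rise in MYB87-SRDX (adjusted p = 0.0027 by limma). The detection rule fixed the direction of all these members, here and in the next paragraph, so their p-values are no support for it. A_84_P711549 (chr3:9879977-9880036, plus strand) had -5.34, -5.91, -6.05 and -5.81 in MYB87-SRDX and -9.26, -8.59, -9.39 and -9.16 in WT. It was at least 2.61-fold higher, with an adjusted p of 0.000479. A_84_P721108 (chr3:2539284-2539343, minus strand) was at least 2.48-fold higher, but its MYB87-SRDX arrays spread from -7.57 to -4.56, and its call was lost in 8 of 18 alternative settings.

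In the other direction, A_84_P703720 (chr5:15231365-15231424, minus strand) had -7.92, -9.23, -7.36 and -7.83 in MYB87-SRDX, where no array detected it, and -6.25, -5.77, -6.22 and -5.60 in WT. It was at least 2.11-fold lower in MYB87-SRDX, with an adjusted p of 0.00727 by limma. A_84_P203048 (chr3:8888409-8888468, minus strand) was at least 1.92-fold lower and A_84_P727003 (chr1:23918073-23918132, minus strand) at least 1.34-fold lower. With normexp these falls were -0.25, -0.13 and -0.15, and the 3 rises above were 0.63, 0.59 and 0.61. The dimmest members of the single-genotype classes belong to the same kind: A_84_P714433 (chr4:11823864-11823923, plus strand) had -6.49 to -5.28 in MYB87-SRDX and -9.42 to -9.15 in WT, and A_84_P706218 (chr1:21477133-21477192, minus strand) had -9.08 to -8.73 in MYB87-SRDX and -8.39 to -5.92 in WT.

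The 5 brightest members had differences between -0.47 and 0.42, and 3 of them were called. The brightest of all, A_84_P723453 (chr5:10186377-10186436, plus strand), had 5.41, 5.28, 5.36 and 5.42 in MYB87-SRDX and 5.15, 5.21, 5.30 and 5.61 in WT. Its mean of 5.34 exceeded that of 99.3% of all tested probes, and its difference of 0.05 ± 0.11 did not pass the test (adjusted p = 0.758 by limma). The next brightest were A_84_P710569 (chr2:3386825-3386884, plus strand), with a mean of 2.32 and a rise of 0.42 ± 0.08 (adjusted p = 0.0109), and A_84_P58070 (chr1:18940092-18940151, plus strand), with a mean of 2.29, which fell by 0.47 ± 0.13 (adjusted p = 0.0301). A_84_P736313 (chr2:3333828-3333887, plus strand) had a mean of 2.1 and a difference of -0.01 ± 0.13 (adjusted p = 0.962). A_84_P16392 (chr2:18392886-18392945, plus strand) had a mean of 1.81 and rose by 0.20 ± 0.06 (adjusted p = 0.0395), a call that was lost in 14 of 19 alternative settings, and that of A_84_P58070 was lost in 9. No other member came near the level of A_84_P723453.

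Some members overlap one another on opposite strands. A_84_P723453 overlaps in position a member on the opposite strand, A_84_P718163 (chr5:10186331-10186390, minus strand), which had -3.76, -4.53, -4.15 and -4.38 in MYB87-SRDX and -4.57, -5.16, -4.93 and -4.19 in WT. The genotypes overlapped in both probes, and neither was called. On the array 205 pairs of position-named probes overlap on opposite strands. Both probes were members in 9 of them, 1 was in 33 and neither was in 163. Among the 9 pairs, A_84_P739368 and A_84_P703493 (chr2:3379119-3379190) were both higher in MYB87-SRDX. The plus-strand probe rose by 0.68 ± 0.11 and the minus-strand probe by 1.23 ± 0.12. At chr5:20813218-20813282, A_84_P736816 on the plus strand rose by 0.38 ± 0.10 and A_84_P730955 on the minus strand by 0.84 ± 0.14.

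Members were mostly isolated. Of the 2020, 1633 had no other member starting within 1000 bases, and the rest formed 136 groups of 2, 24 of 3, 7 of 4 and 3 of 5. Where both of 2 neighbouring members on the same strand were called, they mostly changed in the same direction: outside the chromosome 2 block described below, 25 of 162 neighbouring pairs on 1 strand were called at both probes, all 25 in the same direction, and the differences of the pairs correlated with r = 0.56 across pairs. On opposite strands both probes were called in 7 of 23 pairs, 4 times in the same direction, with r = -0.52. These correlations are descriptions, since neighbouring probes can share a transcript or bases and all pairs share the arrays. The pairs also include members detected in a single genotype, whose direction the rule fixed. Of the 546 calls outside the block 76.0% were higher, so called members often share a direction whether or not they are neighbours.

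The 3 opposite-strand pairs that moved apart lie within 1000 bases of each other and differed in direction by strand. They were chosen after their values were seen. On chromosome 5, A_84_P124501 (chr5:26069422-26069533, minus strand) had -5.23, -5.75, -5.89 and -5.73 in MYB87-SRDX and -4.62, -5.04, -4.89 and -4.86 in WT, a difference of -0.79 ± 0.15 (adjusted p = 0.00959 by limma). Its neighbour A_84_P703917 (chr5:26070086-26070145, plus strand) had -5.17, -6.00, -5.41 and -5.18 in MYB87-SRDX and -6.76, -7.36, -7.98 and -7.11 in WT, a rise of 1.86 ± 0.28 (adjusted p = 0.00435). In both probes the genotypes did not overlap. The WT values of A_84_P703917 were all below -6.53, the highest mean of the undetected position-named probes. At chr5:22752433-22753310 the plus-strand probe A_84_P18800 differed by -0.36 ± 0.10 and the minus-strand probe A_84_P706051 by 1.39 ± 0.33, with adjusted p of 0.0316 and 0.0203. At chr1:6426520-6427193 the plus-strand probe was A_84_P731861, one of the bounded rises above, and the minus-strand probe A_84_P701035 differed by -0.32 ± 0.10 (adjusted p = 0.0463). A_84_P731861 was detected on 4 MYB87-SRDX and 0 WT arrays, so the rule fixed its direction, and its part in the contrast carries no information.

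The 3 largest groups of neighbours differed in what they showed. On chromosome 1, 5 plus-strand probes between 23829989 and 23830597 had mean levels of -6.43 to -3.55 and differences of -0.09 to 0.35, and none was called. On chromosome 5, 5 plus-strand probes between 16203356 and 16205950 gave 4 calls, all higher in MYB87-SRDX. For 3 of them the direction carries no information, since A_84_P741118, A_84_P732914 and A_84_P710373 were well above background on 4 MYB87-SRDX arrays each but on only 1, 0 and 2 WT arrays. A_84_P741118 had -5.29, -5.65, -6.23 and -5.70 in MYB87-SRDX and -7.95, -7.46, -7.79 and -6.66 in WT. Its fitted difference of 1.75 ± 0.30 (adjusted p = 0.00666 by limma) rests on a WT signal near background, and was 0.42 with normexp. A_84_P732914 was higher in MYB87-SRDX by at least 2.37-fold. The call of A_84_P710373 was lost in 8 of 18 alternative settings. A_84_P738192, detected on all 8 arrays, rose by 0.52 ± 0.13, a call lost in 5 of 19. The first probe of the group, A_84_P700035, had -5.87, -6.07, -6.45 and -6.35 in MYB87-SRDX and -4.86, -7.15, -7.23 and -3.50 in WT, where 2 arrays were dim and 2 bright, and was not called. The third group lies in the chromosome 2 block.

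Members were spread over all 5 nuclear chromosomes. The share of position-named probes that were detected was 25.8% on chromosome 1, 24.9% on chromosome 2, 20.9% on chromosome 3, 20.3% on chromosome 4 and 21.9% on chromosome 5, and it was 22.4% on the plus and 23.5% on the minus strand. Calls by strand were 258 higher and 67 lower on the plus strand and 205 higher and 68 lower on the minus strand. Most names span 60 bases (1974 of the 2020 members), where 22.7% of probes were detected and the members' median level was -5.59. Probes of other spans were detected more often and were brighter. These were 35 members with a longer span (36.1% of 97 probes, median level -2.06) and 11 with a shorter one (57.9% of 19, -2.07). The probe number in the name also divided the members. The 184 members numbered below 600000 had a median level of -2.54, 21 higher and 38 lower calls and a median difference of -0.11, whereas the 1836 numbered above had a median level of -5.68, 442 higher and 97 lower calls and a median difference of 0.23. The excess of rises thus lay in the higher-numbered, dimmer set. No source used here says what the numbers mean.

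One stretch of the genome stood out. In windows of 200 kb, 118 windows held at least 20 position-named probes, and 3 of these had over 50% of them detected. The other windows ranged from 0% to 47.6%, with a median of 25%. Of the 3, 2 are adjacent on chromosome 2: 47 of 64 probes (73.4%) were members between 3200001 and 3400000, and 28 of 36 (77.8%) between 3400001 and 3600000. The third, on chromosome 3 between 200001 and 400000, had 15 of 28 (53.6%), with 6 higher and 2 lower and a median difference of 0.34.

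The block formed by the 2 adjacent windows was chosen after its values were seen, so it gets no test of its own. Its 75 members lie at chr2:3244562-3489516, 48 on the plus and 27 on the minus strand, and make up 80% of the plus-strand and 67.5% of the minus-strand probes there. Of them 52 (69.3%) were called, against 28.1% of the 1945 members elsewhere, and 48 of the 52 were higher in MYB87-SRDX. These calls, and the block's medians, include members detected in a single genotype, whose direction the rule fixed. Among them was A_84_P723230, called as higher and well above background on 4 MYB87-SRDX and 2 WT arrays. The median log2 difference was 0.577 in the block and 0.182 outside it, and 3 of the 20 brightest members lay in the block, A_84_P710569 and A_84_P736313 among them. Without the block the members still had 546 calls, 415 higher and 131 lower.

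The block's shift was visible on each array. The median block member deviated from its 8-array mean by 0.35, 0.16, 0.16 and 0.41 on the MYB87-SRDX arrays and by -0.24, -0.29, -0.28 and -0.28 on the WT arrays, so that every MYB87-SRDX array lay above every WT array. The members outside deviated by 0.21, 0.05, 0.00 and 0.13 in MYB87-SRDX and by -0.14, -0.14, -0.12 and 0.02 in WT, and overlapped. As background, the Columbia genome carries, near the centromere of chromosome 2, a large copy of the mitochondrial genome, so probes from that place can also match mitochondrial transcripts. Loci that the TAIR10.1 gene table places between AT2G07660 and AT2G07680, a run chosen after the values were seen, have 47 locus-named probes on the array. Of the 40 detected, 26 were called, all of them higher in MYB87-SRDX, with a median difference of 0.652. Whether the block and that run cover the same bases could not be settled without the build, and whether these probes read nuclear or mitochondrial RNA was not tested.

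None of the 4 tested probes named by organelle loci was called as higher. AtMg00580 had 3.63, 3.85, 3.97 and 3.68 in MYB87-SRDX and 4.21, 4.42, 4.50 and 4.57 in WT, a difference of -0.64 ± 0.11 with an adjusted p of 0.00618 by limma. The genotypes did not overlap. AtMg00516 differed by -0.03 ± 0.13 and AtMg00285 by -0.13 ± 0.14, with adjusted p of 0.88 and 0.517, and the chloroplast locus AtCg01000 by 0.04 ± 0.14 (adjusted p = 0.869). AtMg00300 was too dim to enter the test, with -6.28, -6.88, -7.38 and -6.89 in MYB87-SRDX and -8.52, -7.00, -8.61 and -7.74 in WT.

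Within the block the change was not uniform. The group of 5 members at chr2:3337797-3338953 had differences of -0.12 to 0.95. Its brightest probe, A_84_P739485 on the plus strand, had 0.03, -0.26, 0.01 and -0.18 in MYB87-SRDX and 0.07, 0.17, 0.07 and -0.22 in WT and was not called (adjusted p = 0.423 by limma). The dimmer A_84_P714214, on the same strand, had -4.89, -4.93, -5.01 and -4.97 in MYB87-SRDX and -6.27, -5.75, -5.64 and -5.95 in WT, a rise of 0.95 ± 0.13 (adjusted p = 0.00324). All 4 falls of the block were on the plus strand, and 3 of them stood next to each other. A_84_P704771 (chr2:3424862-3424921), A_84_P726333 (chr2:3425162-3425221) and A_84_P705595 (chr2:3425366-3425425) differed by -0.93 ± 0.19, -1.03 ± 0.22 and -0.66 ± 0.15. A_84_P705595, the brightest, had 0.02, 0.42, 0.48 and 0.08 in MYB87-SRDX and 0.59, 1.00, 1.02 and 1.02 in WT. The remaining fall, A_84_P735478 (chr2:3450094-3450153), had -2.75, -2.27, -2.43 and -2.57 in MYB87-SRDX and -2.14, -1.75, -1.77 and -1.87 in WT, a difference of -0.62 ± 0.13. The member beside it on the same strand, A_84_P730164 (chr2:3449940-3449999), rose by 0.38 ± 0.09, so neighbouring probes of the block could change in opposite directions.

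**Figure D4:**
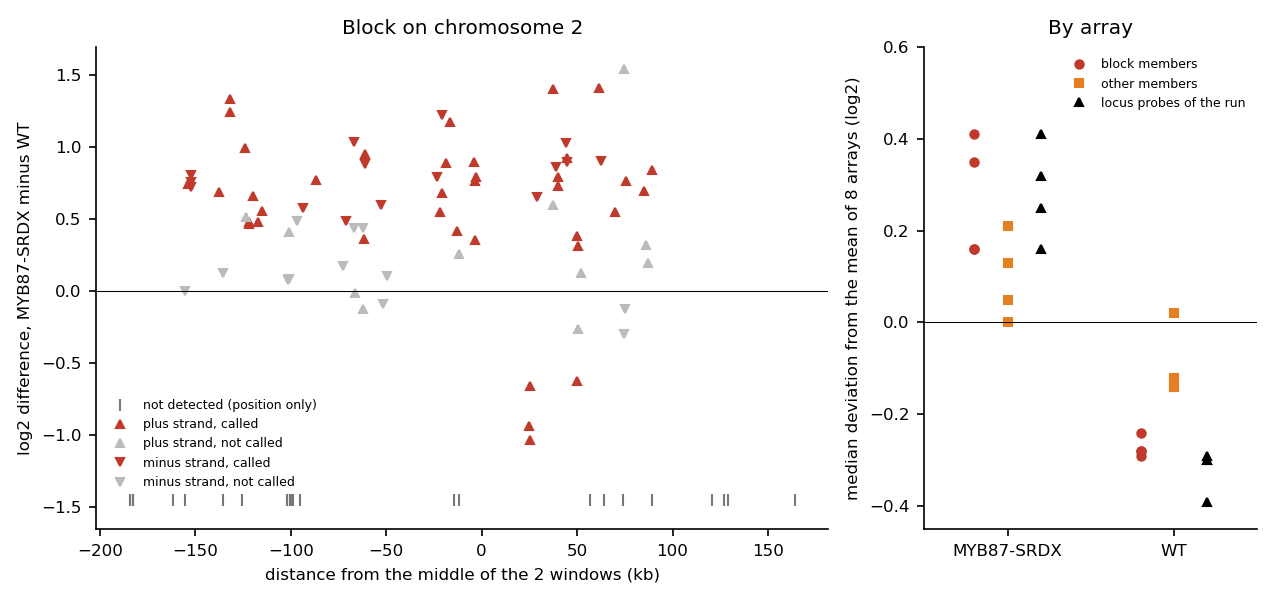
Left, log2 difference of the block's members, MYB87-SRDX minus WT (vertical axis), against distance from the middle of the 2 chromosome 2 windows in kb (horizontal axis), with triangles up for the plus strand and down for the minus strand, red where called, and grey bars at the foot for probes not detected. Right, the median deviation of each array from the 8-array mean (log2) for the 75 block members, the other members and the 40 locus-named probes of the run, with the 4 MYB87-SRDX arrays left of the 4 WT arrays. Block members lie between 0.16 and 0.41 on the MYB87-SRDX arrays and between -0.29 and -0.24 on the WT arrays.

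Among the MYB87-SRDX arrays, the lowest signal of a risen member was mostly on replicate 2 or 3. Of the 312 risen members detected on all 8 arrays, each of these was lowest for 133 (42.6%). Replicate 4, with the lowest MYB87 signal, was lowest for 27 (8.65%), and replicate 1, with the highest, for 19 (6.09%). Over all 3310 such probes, replicate 4 was lowest for 745 (22.5%) and replicate 1 for 273 (8.25%). The median member's deviation was also lower on replicates 2 and 3 (0.050 and 0.004) than on replicates 1 and 4 (0.216 and 0.144). Whether the order of the arrays goes with MYB87 signal was not tested. These values are a description of 4 arrays, which differ in more than the transgene.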

How the data were processed

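Processed signal intensity values on a linear scale were deposited in the scanner tables. Per the submitters' processing notes, the software was Agilent Feature Extraction 9.1.3.1. The authors' deposited value table holds the same signal times a constant that was found by division, 0.001175 on the MYB87-SRDX slide and 0.001094 on the WT slide. It is therefore linear intensity with no centring, and its column medians were 0.108, 0.133, 0.114 and 0.114 for MYB87-SRDX and 0.129, 0.15, 0.123 and 0.105 for WT.

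From these files, spots with outlier flags were set to missing (2 members lack 1 or more arrays in the fit), each array's 75th percentile (non-control spots) was subtracted from its log2 processed signal, and repeated spots of 1 probe were averaged. A position-named probe has a systematic name that starts with CHR. Differences were fitted at probe level with lmFit and eBayes of limma 3.58.1 under R 4.3.3, with Benjamini-Hochberg adjustment over 24008 probes and a threshold of 0.05. The number of arrays limits the precision. Simulated data with 24008 probes gave back 35.8%, 73.1% and 92.4% of probes changed by log2 0.5, 1 and 2, with 8 false calls. Only a small part of the simulated probes was changed, with independent normal noise, whereas 26.8% of probes were called in the data. The Benjamini-Hochberg cut-off was therefore stricter in the simulation, and these shares are not the recovery in this comparison.

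Named members were the 10 largest rises and 10 largest falls among called, non-overlapping members detected on all 8 arrays, with neighbours starting within 1000 bases. The rule also takes the 3 largest bounds in each direction, the 5 brightest members, the 3 largest groups of neighbours, and the probes next to the detection limit. Members and lists were chosen with earlier results of these data known. Alternatives were median, quantile and locus-based scaling, an offset of 50, normexp, the authors' values, other filters, an intensity trend, array weights, a replicate block and leaving out each array. Normexp used the median signal, and was fitted without spots flagged for their background, because the fit over all spots failed on MYB87-SRDX replicate 4. Loci were placed in order with the RefSeq table of assembly TAIR10.1.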

Additional observations from a re-analysis of the deposited data

Results flagged for a closer look

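Of 118 groups of 4 arrays examined for the named probes, 10 held an array far from the other 3 by Dixon's criterion, and chance gives about 1 in 20. MYB87-SRDX replicate 3 was low on 4 members of the neighbour groups: A_84_P728289 at -4.71 (others -4.31 to -4.24), A_84_P738731 at -3.88 (others -3.50 to -3.47), A_84_P738192 at -4.57 (others -4.15 to -4.07) and A_84_P710373 at -6.65 (others -5.84 to -5.76). Members of a group are neighbours, so these are not independent cases.

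WT replicate 1 stood apart on 4 named falls or their neighbours. It was high on A_84_P298624, at -1.60 against -3.43 to -3.14 on the other WT arrays. It was low on A_84_P720423 (-4.01, others -3.52 to -3.46), A_84_P704771 (-2.27, others -1.57 to -1.53) and A_84_P705595 (0.59, others 1.00 to 1.02), of which the last 2 are neighbours in the chromosome 2 block. WT replicate 4 was high on A_84_P732914, at -6.72 against -7.68 to -7.52. The MYB87 probe (AT4G37780) was at 2.54 on MYB87-SRDX replicate 4, against 5.52 to 5.75 on the other MYB87-SRDX arrays.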

How the results depend on the processing

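Of the 598 called members, 2 changed sign under normexp, where neither was called, and none in the other 18 settings, of which the filter on all 8 arrays tested 424. Of 44 named calls, 22 held in all 19 alternative settings, 6 held in the 18 that tested them, and 16 were lost in at least 1. Leaving out 1 array at a time gave 363 to 610 members called, 287 to 487 higher and 76 to 169 lower, 104 to 172 and 12 to 20 at least 2-fold higher and lower, and a median difference of 0.145 to 0.238. Median scaling moved the median of all probes from 0.025 to 0.115, gave 61 lower calls and a member median of 0.285, and raised the share of higher calls to 89.3% for members and 69.1% for all probes, from 77.4% and 57.0%. Scaling on locus-named probes gave 71.8% and 47.4%, so a majority of calls higher held for the members but not for all probes. An offset of 50 gave 88 lower calls, 18 rises and 1 fall of at least 2-fold. Normexp gave 387 calls with 78 lower, and 19 rises and 0 falls of at least 2-fold, where fewer dim probes can reach a large fold by the offset's construction. The authors' values gave 60 lower calls, and no filter gave 86. Requiring all 8 arrays left 59 rises and 7 falls of at least 2-fold among fewer members. Array weights gave 790 calls. For the other shifts the cause was not tested. Without the chromosome 2 block, an alternative chosen after seeing the data, 546 calls were left.

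The replicate numbers did not pair the samples: same-numbered arrays correlated by 0.081, 0.11, 0.135 and -0.168 in their deviations. With the number as a replicate block, 539 members were called (416 higher, 123 lower) of 4445 over all probes. Requiring 2 or 4 arrays of a genotype for detection gave 2333 or 1792 members. Signal near background limits the dim members most.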
